A study of Mus musculus with 28 samples.

Results

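The potassium channel genes described here are the protein-coding genes whose symbol begins with Kcn, without the Kcnc and Kcnq families. Their reads were counted in nuclear RNA of motor cortex, taken from 7 mice that carry the numbers 17 to 23. Of 94 protein-coding Kcn genes among the 41549 genes of the tables, 85 were members by this rule. A mean of 5 CPM, the gene's share of a library's counts on a scale common to all libraries, in at least 1 of the 4 groups was reached by 53 members, and these are counted in what follows. The other 32 did not reach it, and 17 of those had no count in any library. Just inside the threshold, the highest group mean was 5.87 CPM for Kcna5, 6.00 CPM for Kcnd1 and 6.06 CPM for Kcnj16. Just outside it were Kcng4 with 4.73 CPM, Kcnk6 with 4.86 CPM and Kcnk12 with 4.92 CPM.

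On each side of the brain, every mouse was injected with an adeno-associated virus (AAV) that delivers the nuclease Cas9. AAV-Cas9-miR-124-empty went into the left motor cortex and AAV-Cas9-miR-124-g4 into the right one, so vector and hemisphere cannot be told apart. The labels do not state what g4 is directed against, and they give no strain, sex, age or promoter. The tissue was fixed with 1% PFA, and nuclei stained for the HA tag of Cas9 were sorted into an HA-positive and an HA-negative fraction. The resulting 4 groups of 7 libraries are the empty vector in HA-positive nuclei, g4 in HA-positive nuclei, the empty vector in HA-negative nuclei and g4 in HA-negative nuclei. All groups, the HA-negative nuclei included, come from hemispheres injected with a Cas9 vector, so there is no uninjected tissue among them.

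Potassium channels let potassium ions leave or enter a cell along their gradient and so set its resting potential, its firing rate and the shape of its action potentials. Each channel is an assembly of pore-forming alpha subunits, often with auxiliary subunits that alter its gating or its transport to the membrane. In cortex, different neuron classes and glia carry different sets of these subunits. Kcnc and Kcnq genes, not described here, encode the Kv3 and Kv7 channels. A microRNA such as miR-124, which is abundant in neurons, pairs through its seed with short sites in the 3′ UTR of messenger RNAs and lowers their level or translation.

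Because the vectors are named for miR-124, the 3′ UTRs of the members were searched for the letters that pair with its seed. The motifs were GTGCCTT (7mer-m8), TGCCTTA (7mer-A1) and GTGCCTTA (8mer, which holds both), on the transcript strand of the longest 3′ UTR of each gene in GENCODE M21 (build GRCm38). Among the 53 described members, 16 held at least 1 motif (30.2%), against 19.7% of 20921 protein-coding genes. The median 3′ UTR of the 53 was 1843 bases long and that of all protein-coding genes was 963 bases. The share of 8mer holders was 3.77% (2 genes) among the described members and 2.7% among all genes. A match is a description of letters and not a shown binding site. The sequences below are the 8mer matches of described members, which are the longest, and the matches of Kcna2, Kcnj10 and Kcnh7. Kcnb2, Kcnt2, Kcnh1, Kcns1, Kcns2, Kcnk3, Kcnk9, Kcnj2, Kcnj11, Kcnj16 and Kcnma1 also hold 7mer matches, which are not shown. Capitals mark the motif, and each run is written 5′ to 3′ as in the transcript.
Kcnk2 8mer, chr1:189209319-189209346, minus strand: aagaaattttctgccaGTGCCTTAtctt
Kcnk10 8mer, chr12:98434703-98434730, minus strand: attcacactgagacacGTGCCTTAaata
Kcna2 7mer-m8, chr3:107109560-107109587, plus strand: cttcccattcaagtgttGTGCCTTgaca
Kcna2 7mer-m8, chr3:107110194-107110221, plus strand: aatttagttatggctctGTGCCTTtcta
Kcna2 7mer-A1, chr3:107111953-107111980, plus strand: aaagtaggattccctctTGCCTTAgtta
Kcnj10 7mer-A1, chr1:172372334-172372361, plus strand: tgtgagagagcatttccTGCCTTAaccc
Kcnh7 7mer-m8, chr2:62694775-62694802, minus strand: acatgggcaaaaaccctGTGCCTTttct

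The libraries were shallow for single genes, with 248612 to 902944 counts each and 8687 to 13668 genes detected. A single count was worth 1.09 to 3.59 CPM, and 3 counts over all 28 libraries corresponded to 0.202 CPM, the level that a total of 0 still allows for counting error alone. The 85 members together took 0.292 to 0.448% of the counts of a library, and 43 to 60 of them were detected in any single library. The median number of genes detected was 10475 with the empty vector in HA-positive nuclei, 11973 with g4 in HA-positive nuclei, 12499 with the empty vector in HA-negative nuclei and 12125 with g4 in HA-negative nuclei. Under 10000 genes were detected in 4 libraries, all of HA-positive nuclei. The HA-positive g4 library of mouse 19 stood apart from the other 6 of its group: its oligodendrocyte markers summed to 1414 CPM against at most 202 CPM, and its microglia markers to 376 CPM against at most 47.2 CPM. It also held reads of Xist, with 591 counts, where the other libraries of mice 17 to 20 had none. All libraries of mice 21 to 23 held Xist reads, from 124 to 1012 counts.

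The 2 fractions differed in cell type markers, in both vectors. Inhibitory neuron markers summed to 3021 to 4228 CPM in HA-positive nuclei with the empty vector and to 1961 to 3894 CPM with g4, against 964 to 1385 CPM and 892 to 1411 CPM in HA-negative nuclei. Of the inhibitory markers tested, 9 of 10 were higher in HA-positive nuclei with the empty vector and 10 of 11 with g4. Oligodendrocyte markers ran the other way, with 53.7 to 118 CPM and 94.2 to 1414 CPM in HA-positive nuclei against 1089 to 1893 CPM and 1340 to 2483 CPM in HA-negative nuclei. Microglia markers summed to 6.61 to 43.1 CPM and 2.55 to 376 CPM in HA-positive nuclei, with 5 of 11 genes at 0 under the empty vector, and to 279 to 652 CPM and 425 to 675 CPM in HA-negative nuclei. Markers of striatal projection neurons summed to 77.5 to 263 CPM and 99.1 to 384 CPM in HA-positive nuclei and to 578 to 1471 CPM and 157 to 1127 CPM in HA-negative nuclei, although the labelled tissue is motor cortex. Excitatory neuron markers summed to 668 to 1159 CPM and 819 to 1415 CPM in HA-positive nuclei and to 1222 to 1620 CPM and 1139 to 1652 CPM in HA-negative nuclei, with 2 of 10 and 2 of 11 tested genes lower. Oligodendrocyte precursor markers were lower in 1 of 1 and 2 of 2 tested genes, and no endothelial or mural marker passed the filter. The part of this marker difference in the channel gene results was not tested. In such sums over many nuclei, fewer nuclei of a type and less RNA per nucleus cannot be told apart.

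Families differed in how many members were seen. All 3 Kv4 alpha subunits, all 4 KChIPs and all 3 Kv1 beta subunits reached the threshold. So did 6 of 8 Kv1 alpha subunits, 7 of 10 electrically silent subunits, 6 of 8 EAG, ERG and ELK channels and 9 of 15 inward rectifiers. The same held for 3 of 5 BK genes, 2 of 4 calcium-activated SK and IK channels, 2 of the 3 Slo genes Kcnt1, Kcnt2 and Kcnu1, and 6 of 14 leak channels of the 2-pore type. None of the 5 KCNE subunits, small partners of Kv channels known mainly from heart and epithelia, had a count in any library. The others with no count were Kcna7, Kcna10, Kcnv2, Kcnmb3, Kcnn4, Kcnj1, Kcnj13, Kcnj15, Kcnk7, Kcnk15, Kcnk16 and Kcnk18. The remaining 15 below the threshold had a few counts each, from a total of 1 for Kcnj5 and for Kcnrg to 57 for Kcnk12.

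Summed over a family, the Kv1 alpha subunits gave 739 ± 182 CPM (SD, n = 7) with the empty vector and 698 ± 81.1 CPM with g4 in HA-positive nuclei, and 590 ± 56.6 and 541 ± 56.0 CPM in HA-negative nuclei. The Kv1 beta subunits gave 334 ± 82.1, 258 ± 23.8, 246 ± 44.3 and 197 ± 42.8 CPM in the same order. Sums of the BK genes were 532 ± 106, 594 ± 49.1, 571 ± 108 and 551 ± 39.1 CPM, and those of the inward rectifiers 347 ± 79.4, 371 ± 42.5, 357 ± 50.6 and 363 ± 20.5 CPM. The family sums were not tested. For the inward rectifiers the 4 means lay between 347 and 371 CPM, with SDs of 20.5 to 79.4 CPM.

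Levels of different genes were set side by side per kilobase of exon. In HA-positive nuclei with the empty vector, the highest was Kcna2 (Kv1.2, an axonal delayed rectifier subunit) at 40.5 CPM per kb, followed by Kcnab2 at 34.5, Kcna1 at 32.8 and Kcnk1 at 28.6 CPM per kb. With g4 in the same fraction, the order began with Kcna2 at 35.5, Kcnma1 at 32.0, Kcnk1 at 31.0 and Kcna1 at 30.3 CPM per kb. In HA-negative nuclei with the empty vector, Kcnma1, the BK channel pore, was at 29.7, Kcna1 at 27.6, Kcnd2 at 27.0 and Kcna2 at 24.7 CPM per kb. With g4 in that fraction, Kcnma1 was at 28.9, Kcna2 at 25.1 and Kcnd2 at 24.9 CPM per kb. The orders rest on group means, and neighbouring genes in them were not tested against each other.

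**Figure D1:**
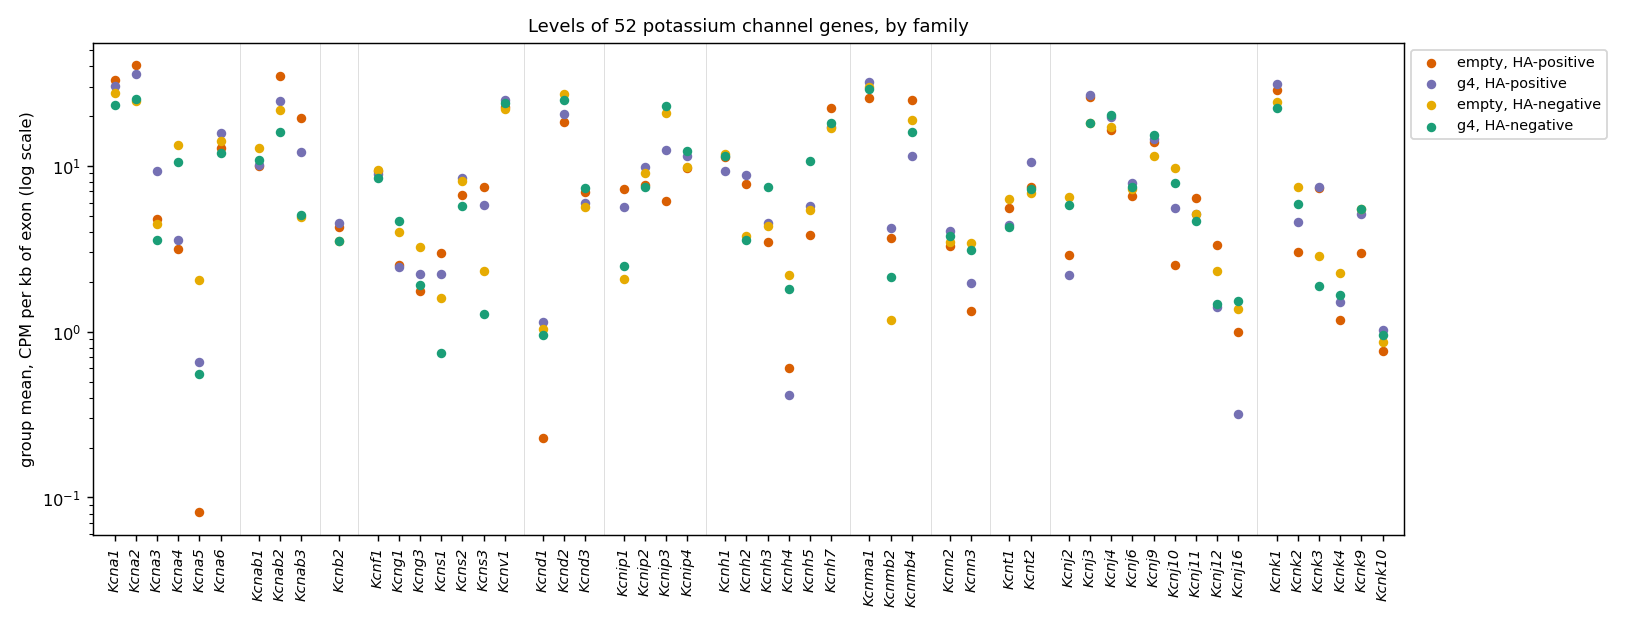
Mean level of 52 of the described genes, in CPM per kb of exon on a log axis, by family from left to right, with 1 point per group of 7 libraries (groups by colour, no error bars). Group means run from 0.081 CPM per kb for Kcna5 to 40.5 CPM per kb for Kcna2, both in HA-positive nuclei with the empty vector.

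The first comparison set HA-positive against HA-negative nuclei of the same hemisphere, under each vector. With the empty vector, 36 members passed the filter on low counts and 6 of them were called (16.7%), 3 higher and 3 lower in HA-positive nuclei, where edgeR's quasi-likelihood test called 7.01% of all 5538 genes tested (3.5% higher and 3.5% lower). With g4, 39 members were tested and 5 called (12.8%), 3 higher and 2 lower, against 6.4% of 6264 genes (3.32% higher and 3.08% lower). With no filter on low counts, 7 of 65 members were called with the empty vector, against 3.72% of all genes, and 7 of 68 with g4, against 3%. That added Kcnab3 with the empty vector (1.89 ± 0.43, adjusted p 0.00086), and Kcnk3 (2.04 ± 0.50, adjusted p 0.00356) and Kcns3 (2.22 ± 0.65, adjusted p 0.0246) with g4. The median log2 fold change of the tested members was 0.00 with the empty vector and -0.04 with g4, next to 0.01 over all genes in both. The called genes were Kv1 alpha, Kv1 beta, KChIP and Kir genes with the empty vector, and Kv1 alpha, Kv1 beta, KChIP and ERG genes with g4. Of the 53 described members, 17 were not tested with the empty vector and 14 were not tested with g4. Without the HA-positive g4 library of mouse 19, edgeR called 9 members with g4, 5 higher and 4 lower, against 7.96% of all genes. Kcnj2 (Kir2.1, at -2.00 ± 0.47, adjusted p 0.00378), Kcnab3 and Kcnip1 were among those added. In all 7 mice Kcnj2 was 12.0 ± 11.9 CPM in HA-positive and 31.6 ± 12.7 CPM in HA-negative nuclei with g4 (SD). With the empty vector it was 15.9 ± 26.0 and 35.2 ± 23.9 CPM. In the main fit Kcnj2 was not called with g4, and with the empty vector it did not pass the filter and was not tested. Leaving out mouse 20 left 1 called member with g4, mouse 22 left 2 and mouse 21 left 3. Over all genes, 218, 241 and 224 were called in these runs, against 401 in the main fit.

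**Figure D2:**
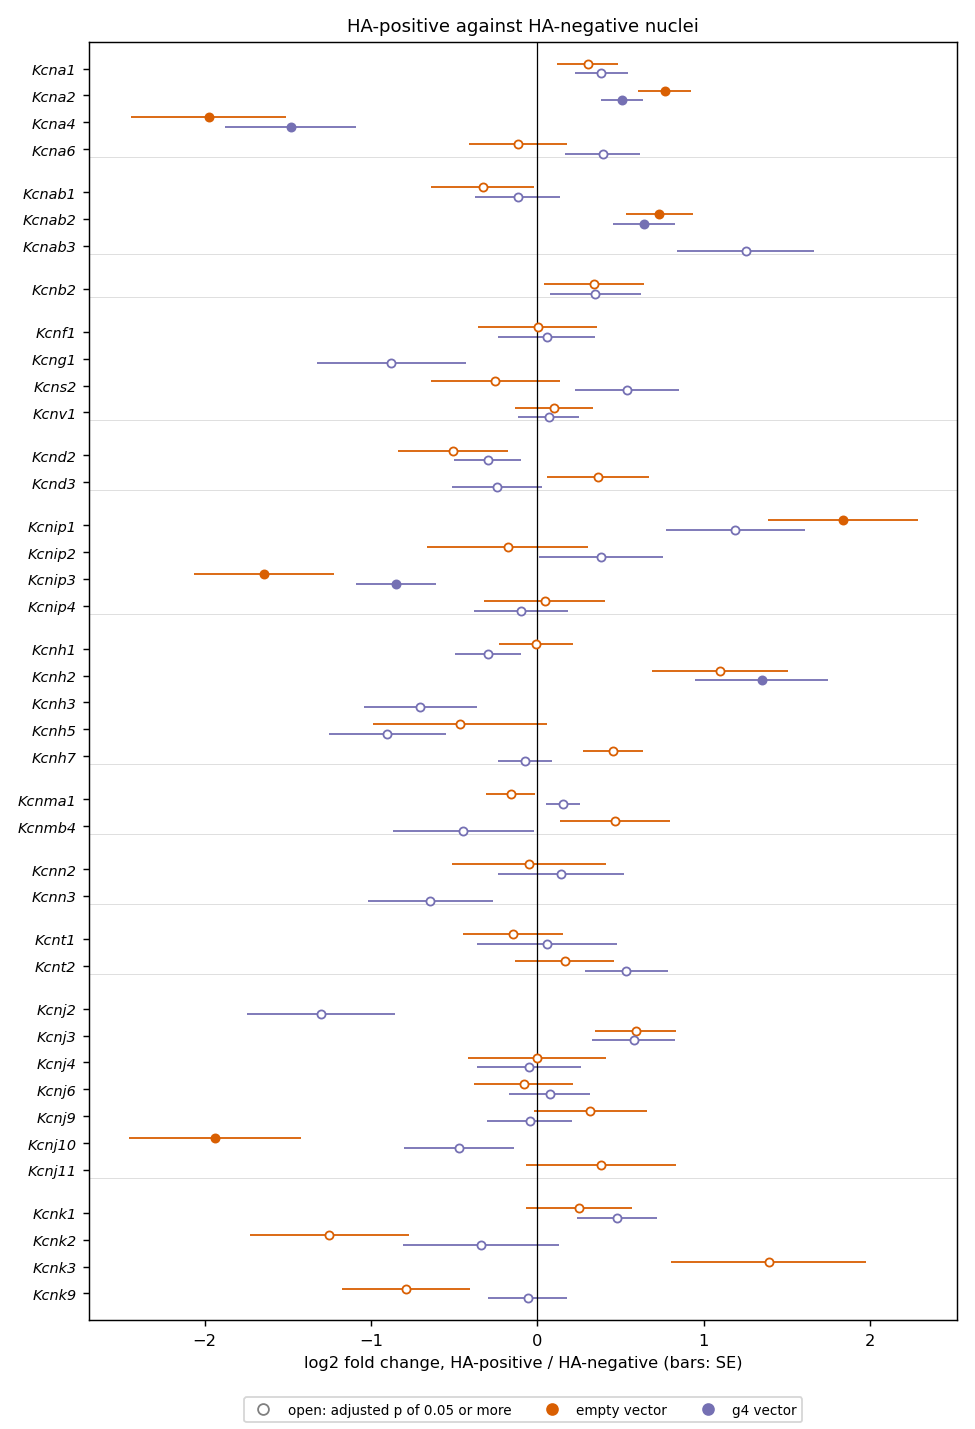
Log2 fold change of HA-positive over HA-negative nuclei for the tested genes, by family, with the empty vector in orange and g4 in purple. Bars are SE, filled points have an adjusted p under 0.05, and open points did not reach it. Kcna2, Kcna4, Kcnab2 and Kcnip3 are filled under both vectors.

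Kcna2 (3:107101146-107115005, plus strand) was higher in HA-positive nuclei under both vectors. Its level was lowest 334, median 436 and highest 694 CPM in HA-positive nuclei with the empty vector, and 233, 304 and 354 CPM in HA-negative nuclei. With g4 the values were 291, 445 and 555 CPM against 250, 283 and 372 CPM. The 2 fractions overlapped by a narrow margin with the empty vector and more with g4. The log2 fold change was 0.77 ± 0.16 (SE) with the empty vector, with a Benjamini-Hochberg adjusted p from edgeR of 0.00178, and 0.51 ± 0.12 with g4 (adjusted p 0.00911), higher in 7 of 7 mice each time. The call with g4 was lost without mouse 22 (adjusted p 0.0564) and with library sizes in place of TMM factors (adjusted p 0.0517).

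Kcnab2 (Kvbeta2, a cytoplasmic partner of Kv1 channels that aids their transport) was also higher in HA-positive nuclei. With the empty vector it measured 144, 211 and 255 CPM (lowest, median, highest) in HA-positive and 83.2, 122 and 197 CPM in HA-negative nuclei. With g4 the values were 114, 129 and 184 CPM and 62.6, 83.9 and 124 CPM. The groups overlapped under both vectors. The log2 fold change was 0.73 ± 0.20 (edgeR adjusted p 0.0198, higher in 7 of 7 mice) with the empty vector and 0.64 ± 0.19 (adjusted p 0.0316, 5 of 7 mice) with g4. The call was lost without mouse 17, 19 or 22 with the empty vector (adjusted p 0.0602, 0.105 and 0.102) and without mouse 18, 20, 21 or 22 with g4 (adjusted p 0.0848 to 0.129). It was also lost without the 4 libraries under 10000 genes (adjusted p 0.0655 and 0.0706) and, with g4, with library sizes in place of TMM factors (adjusted p 0.0978). Kcna1, the Kv1.1 subunit that pairs with Kcna2 and Kcnab2 in axonal channels, had log2 fold changes of 0.30 ± 0.18 and 0.39 ± 0.16 that did not pass (adjusted p 0.393 and 0.168).

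Kcna4 (Kv1.4, an inactivating Kv1 subunit) was lower in HA-positive nuclei. It ranged from 0 to 41.6 CPM with a median of 13.8 in HA-positive nuclei with the empty vector, and from 32.2 to 115 CPM with a median of 51.1 in HA-negative nuclei. With g4 the ranges were 0 to 43.6 CPM (median 13.8) and 18.8 to 65.4 CPM (median 56.7). The ranges overlapped under both vectors. Kcna4 fell by 1.98 ± 0.47 on the log2 scale with the empty vector (edgeR adjusted p 0.00644) and by 1.48 ± 0.39 with g4 (adjusted p 0.0172), lower in 7 of 7 mice in each. Without the HA-positive g4 library of mouse 19 it fell by 1.95 ± 0.40 with g4 (adjusted p 0.00103). The calls were lost with limma voom (adjusted p 0.0751 and 0.103), and with g4 also without mouse 20, 21 or 22 (adjusted p 0.0750 to 0.0879).

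KChIPs are calcium-binding partners of Kv4 channels, which carry the fast A-type current of dendrites. Kcnip1 (KChIP1) was called only with the empty vector: 14.4 to 62.3 CPM (median 53.1) in HA-positive against 2.56 to 28.2 CPM (median 7.73) in HA-negative nuclei, a log2 fold change of 1.84 ± 0.45 (edgeR adjusted p 0.00841, higher in 7 of 7 mice). With g4 it measured 12.8 to 56.2 CPM against 3.44 to 30.9 CPM and the change was 1.19 ± 0.42 (adjusted p 0.0874). Without the HA-positive g4 library of mouse 19 the change with g4 was 1.31 ± 0.42 (adjusted p 0.0456). Kcnip3 (KChIP3, also known as DREAM and calsenilin) went the other way. In HA-positive nuclei with the empty vector it lay between 0 and 51.3 CPM and in HA-negative nuclei between 60.9 and 102 CPM, with no overlap, a fall by 1.64 ± 0.42 (adjusted p 0.0121). With g4 the ranges were 22.3 to 54.4 CPM and 53.0 to 116 CPM, overlapping only slightly, a fall by 0.85 ± 0.24 (adjusted p 0.0258). Kcnip3 was lower in 7 of 7 mice under each vector. Its call was lost without mouse 20 with the empty vector (adjusted p 0.0802) and without mouse 17 or 20 with g4 (adjusted p 0.100 and 0.0797), and with g4 also with library sizes in place of TMM factors (adjusted p 0.0527).

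Kcnh2 (ERG1, a channel best known from cardiac repolarisation) was called higher in HA-positive nuclei with g4 only. With g4 it measured 17.4 to 86.8 CPM (median 39.1) against 4.95 to 28.3 CPM (median 15.3), a log2 fold change of 1.35 ± 0.40 (edgeR adjusted p 0.0342, higher in 6 of 7 mice). With the empty vector it was 16.5 to 58.2 CPM (median 43.1) against 6.76 to 32.0 CPM (median 18.1), a change of 1.10 ± 0.41 that did not pass (adjusted p 0.109). Both changes had the same direction, and the difference between them was 0.27 ± 0.57. The call with g4 was lost with limma voom (adjusted p 0.105), without libraries under 10000 genes (adjusted p 0.0984) and without mouse 18, 20, 21, 22 or 23 (adjusted p 0.0552 to 0.150), and DESeq2 called the gene with the empty vector too (adjusted p 0.0486).

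Kcnj10 (Kir4.1, the inward rectifier of astrocytes and oligodendrocytes) was lower in HA-positive nuclei with the empty vector. It ranged from 0 to 43.1 CPM (median 5.06) there and from 24.4 to 98.3 CPM (median 42.8) in HA-negative nuclei, and fell by 1.94 ± 0.52 on the log2 scale (edgeR adjusted p 0.0177, lower in 7 of 7 mice). With g4 the ranges were 12.4 to 50.2 CPM (median 27.6) and 22.7 to 66.8 CPM (median 41.2), where the log2 fold change was -0.47 ± 0.33 (adjusted p 0.508). The call with the empty vector was lost without mouse 17 or 20 (adjusted p 0.0511 and 0.0565). Astrocyte markers summed to 657 to 1357 CPM and 999 to 2738 CPM in HA-positive nuclei and to 1232 to 1628 CPM and 1194 to 1761 CPM in HA-negative nuclei. Among them, only Slc1a2 was called between the fractions with the empty vector, at -0.68 ± 0.14, and none with g4. Oligodendrocyte markers were lower in 7 of 7 and 6 of 8 tested genes. Their part in the Kcnj10 result was not tested.

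**Figure D3:**
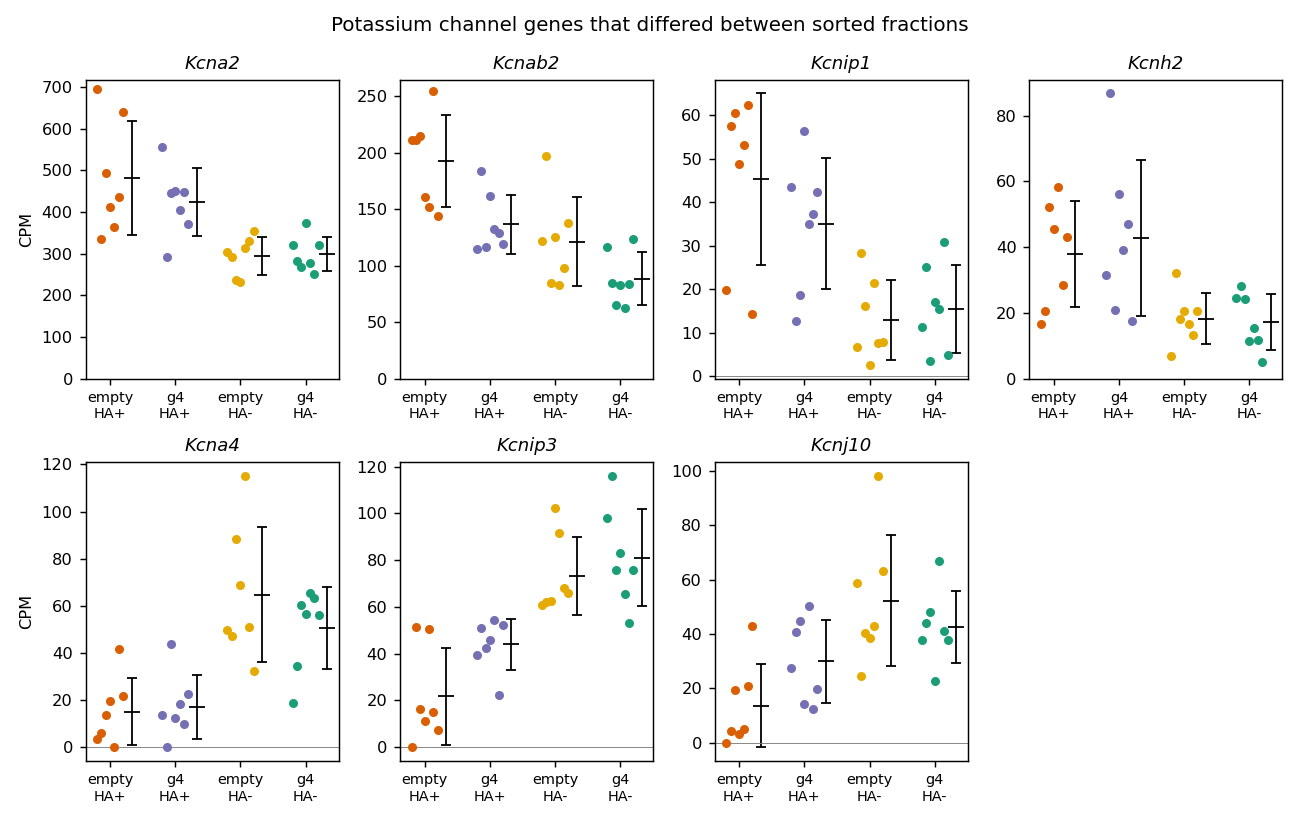
CPM of the members called between the fractions, 1 point per library, with bars for mean and SD of 7 libraries per group. The means of Kcna2, Kcnab2, Kcnip1 and Kcnh2 lie higher in HA-positive nuclei and those of Kcna4, Kcnip3 and Kcnj10 lower, under both vectors. Kcnip1 was called with the empty vector only, Kcnj10 likewise, and Kcnh2 with g4 only.

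The second comparison set g4 against the empty vector within each fraction, with 7 libraries on each side. In HA-positive nuclei edgeR called 0 of 32 tested members, where it called 0.0599% of all 5011 genes; 3 members were below an unadjusted p of 0.05, all lower with g4, next to 6.69% of all genes, and DESeq2 and limma voom also called 0. In HA-negative nuclei edgeR called 0 of 37 tested members, against 0% of 6262 genes, DESeq2 and limma voom also called 0, and 3 members were below an unadjusted p of 0.05, 2 of them higher with g4, next to 3.77% of all genes. The median log2 fold change of the tested members was 0.02 in HA-positive nuclei, with 17 higher and 15 lower, and -0.05 in HA-negative nuclei, with 15 higher and 22 lower, and over all genes it was -0.01 and -0.00. The SE of a member lay between 0.15 and 0.49 in HA-positive and between 0.11 and 0.40 in HA-negative nuclei. No tested cell type marker was called in either comparison. In HA-positive nuclei, 6 of 10 astrocyte, 2 of 10 oligodendrocyte and 2 of 9 striatal projection neuron markers were tested. No oligodendrocyte precursor, microglia, endothelial or mural marker passed the filter there, so a change in those could not be called. In HA-negative nuclei no endothelial or mural marker was tested.

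Members with and without a miR-124 motif were then set side by side, with no test. In HA-positive nuclei, 9 of the 16 holders were tested and their median log2 fold change was 0.02 (5 higher, 4 lower), beside 0.03 over the 23 tested members without a motif. In HA-negative nuclei the median was -0.06 over 12 holders and -0.01 over 25 others. The effect in HA-positive minus that in HA-negative nuclei had a median of 0.33 over 13 holders, 8 higher and 5 lower. Over 29 others it was 0.08, with 15 higher and 14 lower. Over all genes tested the median of this difference was 0.03, and the SE of a member's difference had a median of 0.46. The medians of the holders cover different sets of tested members and cannot be subtracted from each other. Of the 2 fractions, Kcnk2, which holds an 8mer shown above, was tested in HA-negative nuclei only. Its log2 fold change there was -0.34 ± 0.33 (edgeR adjusted p 0.999). The difference between fractions for Kcnk2 was 0.92, or 0.74 ± 0.70 without the HA-positive g4 library of mouse 19. Kcnk10, the other 8mer gene, had 6.71 ± 10.6 CPM (SD, n = 7) with the empty vector and 8.95 ± 5.63 CPM with g4 in HA-positive nuclei and was not tested.

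The 4 members with the smallest p in HA-positive nuclei were Kcnmb4, Kcnab2, Kcnh7 and Kcnip3. Kcnmb4 encodes the neuronal beta4 subunit of BK channels. It was lowest 45.1, median 83.4 and highest 119 CPM with the empty vector and 0, 42.2 and 62.8 CPM with g4, lower with g4 in 7 of 7 mice. The log2 fold change of -1.16 ± 0.40 had an edgeR adjusted p of 0.619. It was -0.83 ± 0.30 without mouse 17, whose g4 library measured 0 CPM, and -0.80 ± 0.53 without libraries under 10000 genes. With limma voom it was -1.47 ± 0.58. Exons of antisense genes, Kcnmb4os1 and Kcnmb4os2, cover 10.7% and 20.8% of its exon bases, and the strand setting of the counting is not given in the sources used here. Kcnab2 was 144 to 255 CPM with the empty vector and 114 to 184 CPM with g4, lower in 6 of 7 mice, at -0.55 ± 0.19 (adjusted p 0.619). Kcnip3 was 0 to 51.3 CPM and 22.3 to 54.4 CPM, higher with g4 in 6 of 7 mice, at 0.92 ± 0.48 (adjusted p 0.751), or 1.40 ± 0.56 with limma voom. Kcnh7, an ERG channel, was at -0.45 ± 0.21 (adjusted p 0.735); without mouse 18, whose g4 library was the lowest, it was at -0.25 ± 0.20, and without libraries under 10000 genes at -0.27 ± 0.17. It ranged from 172 to 474 CPM with the empty vector and from 105 to 323 CPM with g4. The g4 and empty groups overlapped for each of these genes. Without the HA-positive g4 library of mouse 19 the values were -1.20 ± 0.43 for Kcnmb4, -0.51 ± 0.20 for Kcnab2, 0.94 ± 0.52 for Kcnip3 and -0.47 ± 0.23 for Kcnh7. The HA-positive libraries with the empty vector are the same ones as in the fraction comparison above.

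In HA-negative nuclei the members with the smallest p were Kcnh5, Kcnh3, Kcnab2 and Kcns2. Kcnh5 (Eag2) was 3.76, 21.4 and 41.2 CPM with the empty vector and 26.4, 39.8 and 67.7 CPM with g4, higher in 7 of 7 mice, at 0.92 ± 0.34. Kcnh3 (Elk2, an ELK channel) was 15.0, 20.6 and 46.0 CPM against 32.4, 40.3 and 55.1 CPM, higher in 7 of 7 mice, at 0.79 ± 0.30. Kcnab2 was lower in 7 of 7 mice at -0.47 ± 0.19, the same direction as in HA-positive nuclei, and the electrically silent subunit Kcns2 was at -0.48 ± 0.30. Without mouse 18 Kcnab2 was at -0.30 ± 0.20 and Kcns2 at -0.17 ± 0.30. All 4 had edgeR adjusted p-values of 0.999, and the groups overlapped for each.

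**Figure D4:**
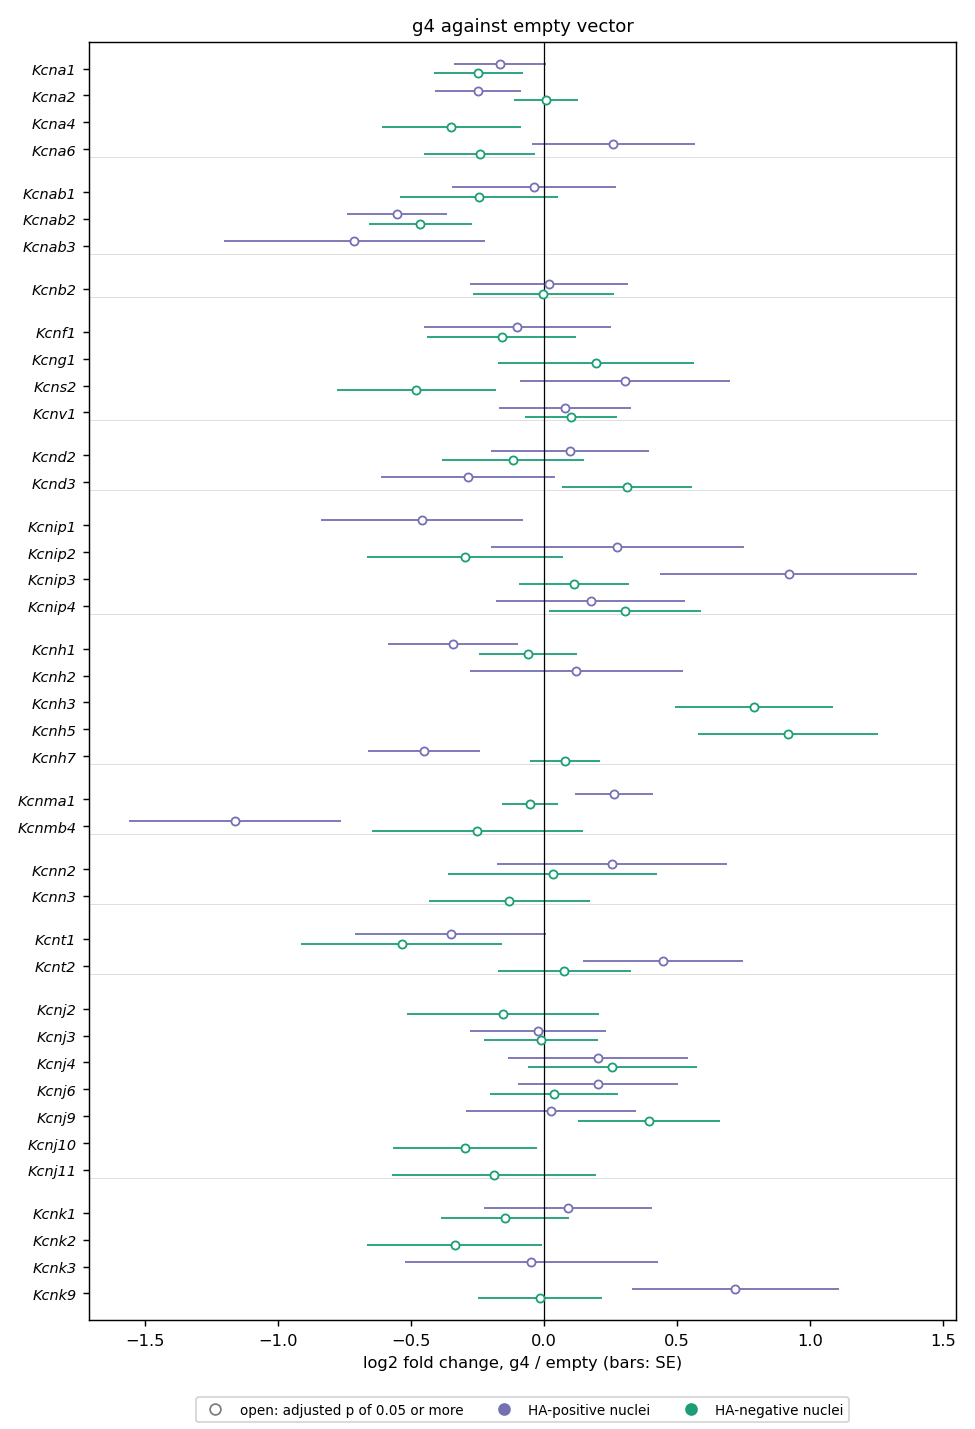
Log2 fold change of g4 over the empty vector for the tested members, by family, with HA-positive nuclei in purple and HA-negative nuclei in green. Bars are SE, and all points are open, since no adjusted p was under 0.05.

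**Figure D5:**
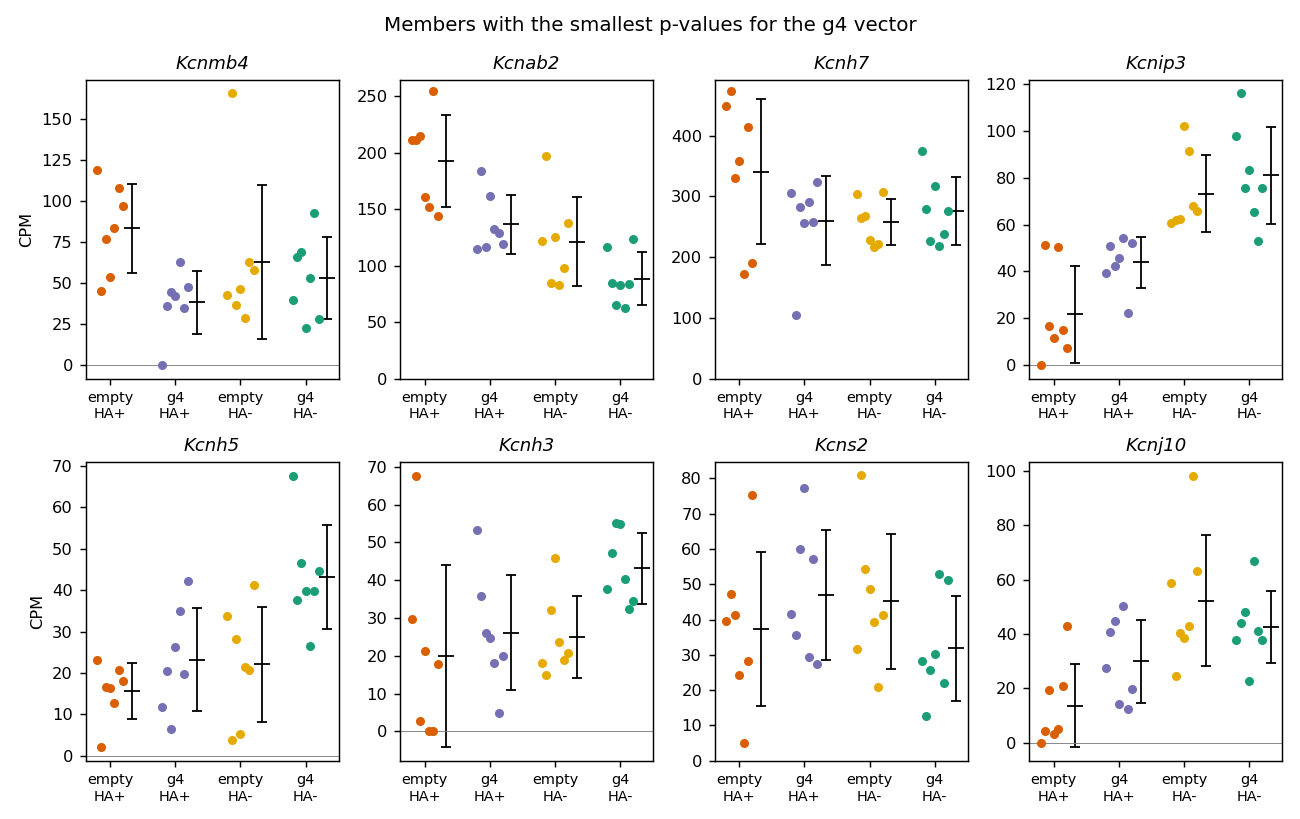
CPM of the members with the smallest p-values for the vector, 1 point per library, with bars for mean and SD of 7 libraries per group. Within each fraction, the g4 and empty points overlap in every panel.

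The third comparison tested whether the effect of g4 differed between fractions, which is also the test of whether the fraction difference depended on the vector. edgeR called 0 of 42 tested members, against 0% of 7197 genes; 1 member, Kcnj10, was below an unadjusted p of 0.05, next to 4.99% of all genes, and DESeq2 and limma voom called 0. For Kcnj10 the difference (effect in HA-positive minus effect in HA-negative nuclei) was 1.49 ± 0.61 (edgeR adjusted p 0.924). For Kcnip3 it was 0.80 ± 0.47 (adjusted p 0.996), for Kcnh7 -0.52 ± 0.26 (adjusted p 0.979) and for Kcnma1 0.33 ± 0.18 (adjusted p 0.982). For the genes called under 1 vector only, it was -0.63 ± 0.62 for Kcnip1 and 0.27 ± 0.57 for Kcnh2. Without mouse 18 the difference was -0.32 ± 0.25 for Kcnh7 and 1.23 ± 0.50 for Kcnip3, for which limma voom gave 1.36 ± 0.50. For Kcnma1 it was 0.20 ± 0.20 without mouse 22 and 0.12 ± 0.17 without libraries under 10000 genes. For Kcnj10 the difference was 1.36 ± 0.62 without the HA-positive g4 library of mouse 19.

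Further members gave values without a called difference in the main fits. Kcnma1, the pore of the BK channel, was 436 ± 119 CPM with the empty vector and 542 ± 49.5 CPM with g4 in HA-positive nuclei, and 505 ± 74.7 and 491 ± 47.9 CPM in HA-negative nuclei (SD, n = 7). Among Kv4 genes, Kcnd2 (Kv4.2) had a log2 fold change of -0.51 ± 0.33 between HA-positive and HA-negative nuclei with the empty vector (edgeR adjusted p 0.443). Kcnv1, a silent subunit that assembles with Kv2, was between 101 and 115 CPM in all 4 group means. Among leak channels, Kcnk3 (TASK1) was 29.3 ± 16.4 and 11.4 ± 9.62 CPM in HA-positive and HA-negative nuclei with the empty vector. The log2 fold change was 1.39 ± 0.59 (edgeR adjusted p 0.171). With g4 Kcnk3 was 29.4 ± 18.6 and 7.47 ± 6.62 CPM. Besides the run with no filter given above, it was called with g4 without libraries under 10000 genes (2.06 ± 0.53, edgeR adjusted p 0.0140). Kcnj3, a G-protein-gated inward rectifier, was 135 ± 62.2 and 93.9 ± 24.0 CPM in the 2 fractions with the empty vector, at 0.59 ± 0.25 (adjusted p 0.162). Kcnn2 and Kcnt2, of the calcium- and sodium-activated channels, changed by -0.05 ± 0.46 and 0.17 ± 0.30 in the same comparison. Kcnab3, the third Kv1 beta subunit, was 3.78, 43.0 and 169 CPM against 1.89, 11.3 and 36.1 CPM with the empty vector and did not pass the filter there; with g4 it was at 1.25 ± 0.41 (adjusted p 0.0638).

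The members of this paragraph gave no called difference in the main fits, and several of them were low or variable. Kcnj9, Kcnj6 and Kcnj4, inward rectifier subunits of neurons, had group means of 49.4 to 65.5, 50.5 to 59.9 and 35.5 to 43.8 CPM. Kcnk9 (TASK3) had means of 36.5 ± 22.3, 63.3 ± 15.4, 67.2 ± 21.8 and 67.2 ± 20.2 CPM in the order used above, with log2 fold changes of -0.79 ± 0.38 between the fractions with the empty vector (edgeR adjusted p 0.256) and 0.72 ± 0.39 for g4 in HA-positive nuclei (adjusted p 0.754). Its 3′ UTR holds 6 motifs, more than that of any other described member, and is 11030 bases long against a median of 1843. Kcnn3, a small-conductance calcium-activated channel, had means of 13.9 ± 14.9 and 35.6 ± 16.4 CPM in the fractions with the empty vector, where it did not pass the filter. It was called there at -1.74 ± 0.53 (adjusted p 0.0333) when libraries with under 10000 genes were left out. Kcns3, a silent subunit of Kv2 channels, had 23.6 ± 13.0 and 18.4 ± 11.1 CPM in HA-positive and 7.35 ± 6.11 and 4.03 ± 3.77 CPM in HA-negative nuclei. Kcna5 had 1 and 6 counts in all in the HA-positive groups and 22 and 5 in the HA-negative groups. Kcna3, Kcng3, Kcns1, Kcnd1, Kcnh4, Kcnmb2, Kcnj12, Kcnj16, Kcnk4 and Kcnk10 were likewise tested in no comparison.

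A list of 18 channel partner genes outside the Kcn family, such as Dpp6, Dpp10, Lgi1 and Dlg4, was tested in the same fits. edgeR called 0 of 12 to 14 tested partners in each of the 5 comparisons. At an unadjusted p under 0.05 there were 0 in either vector comparison, 1 in their difference, 6 of 13 between the fractions with the empty vector, where 19.2% of all genes were, and 2 of 13 with g4, where 17.4% were. DESeq2 called 1 partner, Amigo1, between the fractions with the empty vector, where it called 9.03% of all genes, and 0 elsewhere, and limma voom called 0. The smallest adjusted p-values were 0.0552 for Cntnap2 between the fractions with g4 and 0.0677 for Amigo1 with the empty vector.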

How the data were processed

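Nuclear RNA of 28 libraries, 7 mice in 4 groups, was measured by RNA sequencing. The authors deposited 2 tables of raw gene counts, 1 per nuclear fraction, as whole reads per gene; per the submitters' processing notes the build is GRCm38. Aligner, read counter and strand setting: not given in the sources used here. Columns were tied to samples through the sample descriptions, since the numbers of 3 mice differ between titles and columns. Missing entries were read as 0, and 1 nameless row, with 0% of the counts, was left out. The members, families, partner and marker lists were chosen with earlier results of these data known. Members reaching a mean of 5 CPM are described, except 1 whose values are not reported here; full values are given for called members and, where fewer than 4 were called, for the 4 with the smallest p.

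CPM were computed with TMM factors over all 28 libraries. Each comparison was fitted in R 4.3.3 by edgeR 4.0.16, with genes kept by filterByExpr, TMM factors and a robust two-sided quasi-likelihood test, with Benjamini-Hochberg adjustment over all genes tested and a threshold of 0.05. The fit was run on simulated counts for 3 of the 5 comparisons. These were drawn as independent libraries with dispersions estimated from the data, so the run holds no mouse effect and no mixed library. SE are those of the log2 fold change. Replicates are separate mice. No 2 libraries were identical. Samples are paired by the mouse number of their labels, and correlations of deviations ran from -0.11 to 0.15 over pairs. The HA-positive g4 library of mouse 19 held 591 Xist counts where the other libraries of mouse 19 had none, so its pairing is uncertain. Tallies by mouse and the mouse block follow its label. Alternatives were DESeq2 1.42.0, limma 3.58.1 voom, other normalization factors and filters, a mouse block, and leaving out mice or libraries. Exon lengths, positions and 3′ UTRs come from GENCODE M21.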

Additional observations from a re-analysis of the deposited data

Results flagged for a closer look

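Among 52 sets of 7 libraries (13 named members in 4 groups), 2 held a library far from the others, where chance alone gives about 1 in 20. Kcnmb4 measured 165 CPM in the HA-negative empty-vector library of mouse 18, and the next highest library of that group had 62.4 CPM. Kcnh7 measured 105 CPM in the HA-positive g4 library of mouse 18, and the next lowest had 256 CPM. The Kcnmb4 library takes part in 3 comparisons. Without mouse 18, the log2 fold change of Kcnmb4 between the fractions with the empty vector went from 0.47 ± 0.33 (edgeR adjusted p 0.483) to 1.04 ± 0.29 (adjusted p 0.0283), which passes the threshold. Its log2 fold change of g4 over the empty vector in HA-negative nuclei went from -0.25 ± 0.40 to 0.15 ± 0.29, and the difference of the vector effects from -0.89 ± 0.59 to -1.43 ± 0.55, neither of which passed (adjusted p 0.999 and 0.820). For Kcnh7, g4 over the empty vector in HA-positive nuclei went from -0.45 ± 0.21 to -0.25 ± 0.20 (adjusted p 0.868).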

How the results depend on the processing

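No called member changed direction under any alternative run. The number of members called between fractions with g4 (5) was 2 with library sizes only and 3 with limma voom. It was 3 with at least 20 counts in at least 7 libraries, and 9 without the HA-positive g4 library of mouse 19. With the filter of 20 counts, Kcna4 and Kcnh2 did not pass and were not tested. Without the mouse 19 library, 7.96% of all genes were called, against 6.4% in the main fit. With library sizes only, fewer genes were called in all, as given below. For this comparison, the counts over all genes with limma voom and with the filter of 20 counts are not among those listed below. Leaving out each mouse in turn gave 1 to 6 with g4 and 4 to 6 with the empty vector (6 in all mice). The vector comparisons and their difference stayed at 0 members under every alternative. With the mouse as a replicate block, 6 members were called with the empty vector, 5 with g4 and 0 in the vector comparisons and their difference, so the block changed no member's call. The number of members reaching 5 CPM was 53 also with CPM without TMM factors and without the mouse 19 library, and 52 to 56 when each mouse was left out in turn, an alternative chosen after seeing the data.

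Counts over all genes that moved by over 1.5 times were, for g4 in HA-positive nuclei (3), 11 with DESeq2, 28 without a filter, 1 with limma voom, 1 with the block, 1 without mouse 18, 5 without the mouse 19 library and 0 without libraries under 10000 genes. For g4 in HA-negative nuclei (0) DESeq2 called 1 gene, and for the difference (0) 3 were called without a filter. Between fractions, 661 were called without a filter and 251 without mouse 19 with the empty vector (388). With g4 (401), 259 were called with library sizes only and 218, 224 and 241 without mouse 20, 21 and 22. The cause was not tested. Depth limits members of few counts: 32 of 53 described members were tested for g4 in HA-positive nuclei.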
